A study of Mus musculus with 3 samples.

Results

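The Gli genes and the regulators that act on their proteins in the cytoplasm were examined as possible sites of GLI3 binding in the limb. The 8 member genes were Gli1, Gli2 and Gli3, which encode the GLI transcription factors, and Sufu, Kif7, Stk36, Spop and Spopl, which encode proteins known or thought to hold, traffic, modify or degrade them. A peak was assigned to a member if its summit, the position of highest signal, lay within 100 kb of an annotated transcription start site (TSS) of the gene or inside the gene body. This gave 34 of the 17149 listed GLI3 peaks. Of these, 14 had a false discovery rate (FDR) under 0.05, as did 7282 peaks in the whole list, and only such peaks are called GLI3 peaks here. Across the whole list, 42.5% of peaks passed this threshold, compared with 14 of 34 at the members. A further 26 called peaks, of 44 listed, lay by the same rule at the genes of HH receptors, co-receptors, Smo and Hhip.

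The study mapped GLI3 by chromatin immunoprecipitation and sequencing (ChIP-seq) in forelimb buds of E10.5 mouse embryos of 32 to 35 somites on a mixed strain background. Limb buds of 2 litters went into each of the 2 ChIP replicates, and chromatin that was not immunoprecipitated gave 1 input library. Every embryo carried a FLAG epitope tag on the endogenous Gli3 protein, although the genotype label reads wild type, and whole buds were used, so binding in different cells of the bud is averaged. One peak list was analysed, with no value for either replicate, so no value below has a replicate error and no test between replicates was possible. No library from untagged embryos was analysed here, so GLI3 binding and background of the FLAG antibody cannot be told apart. The tissue label could not be checked, because a peak list holds no expression values.

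Hedgehog (HH) signalling controls the GLI proteins. Without ligand, GLI2 and GLI3 are held by SUFU, phosphorylated and trimmed or degraded, and trimmed GLI3 acts as a repressor. With ligand, full-length GLI proteins pass through the primary cilium and activate targets such as Ptch1 and Gli1. GLI3 repressor is the main GLI activity in the anterior limb bud, where it limits digit number. All 3 GLI proteins recognise closely related DNA, with GACCACCCA as the consensus (TGGGTGGTC on the opposite strand).

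Matches to this consensus with at most 1 mismatch were searched on both strands, and are referred to as GLI matches. Those in the peaks of the members are shown first because they are the letters at these genes that resemble the sequence GLI proteins recognise. All are plus-strand genome sequence of GRCm38.p6 (mm10), with the match in capitals. The substitution is given as the consensus base, its position counted from 1 at the 5′ end of GACCACCCA, and the base found. In the Gli1 peak, the match 44 bp from the summit (C7G, minus strand) and the match 114 bp from it (A9G, plus strand) lay in the 5′ UTR of exon 1, at chr10:127341574-127341602 and chr10:127341732-127341760.
Gli1, C7G: gtgctcgggaTGCGTGGTCcagggctgga
Gli1, A9G: ctcgagccggGACCACCCGcgagaagcgc

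The same Gli1 peak held 4 further matches in intron 2. They lay 923, 1581, 2046 and 2195 bp from the summit, all towards the 3′ end of the gene, at chr10:127340685-127340733 (A9T, minus strand), chr10:127340027-127340075 (A2C, plus), chr10:127339562-127339610 (A5T, plus) and chr10:127339413-127339461 (C3T, minus).
Gli1, A9T: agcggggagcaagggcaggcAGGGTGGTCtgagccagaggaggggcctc
Gli1, A2C: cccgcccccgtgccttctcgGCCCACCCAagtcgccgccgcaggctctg
Gli1, A5T: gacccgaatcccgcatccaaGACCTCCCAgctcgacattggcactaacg
Gli1, C3T: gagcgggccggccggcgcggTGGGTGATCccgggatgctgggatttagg

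The intronic Sufu peak held a pair of matches, 39 bp (C6G) and 71 bp (G1T) from its summit, both on the minus strand. They lay at chr19:46422729-46422777 and chr19:46422697-46422745, and the printed stretches overlap.
Sufu, C6G: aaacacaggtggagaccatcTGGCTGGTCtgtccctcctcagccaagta
Sufu, G1T: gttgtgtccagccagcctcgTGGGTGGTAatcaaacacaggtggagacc

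Of the 4 Gli2 peaks, 2 held a match inside the peak but more than 250 bp from its summit. One lay 280 bp from the summit of the upstream peak (C4G, plus strand, chr1:119053933-119053981) and the other 485 bp from the summit of an intron 2 peak (A5T, minus strand, chr1:118983153-118983201).
Gli2, C4G: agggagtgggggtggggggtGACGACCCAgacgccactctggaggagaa
Gli2, A5T: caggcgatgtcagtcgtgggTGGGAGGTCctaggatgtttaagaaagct

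**Figure D1:**
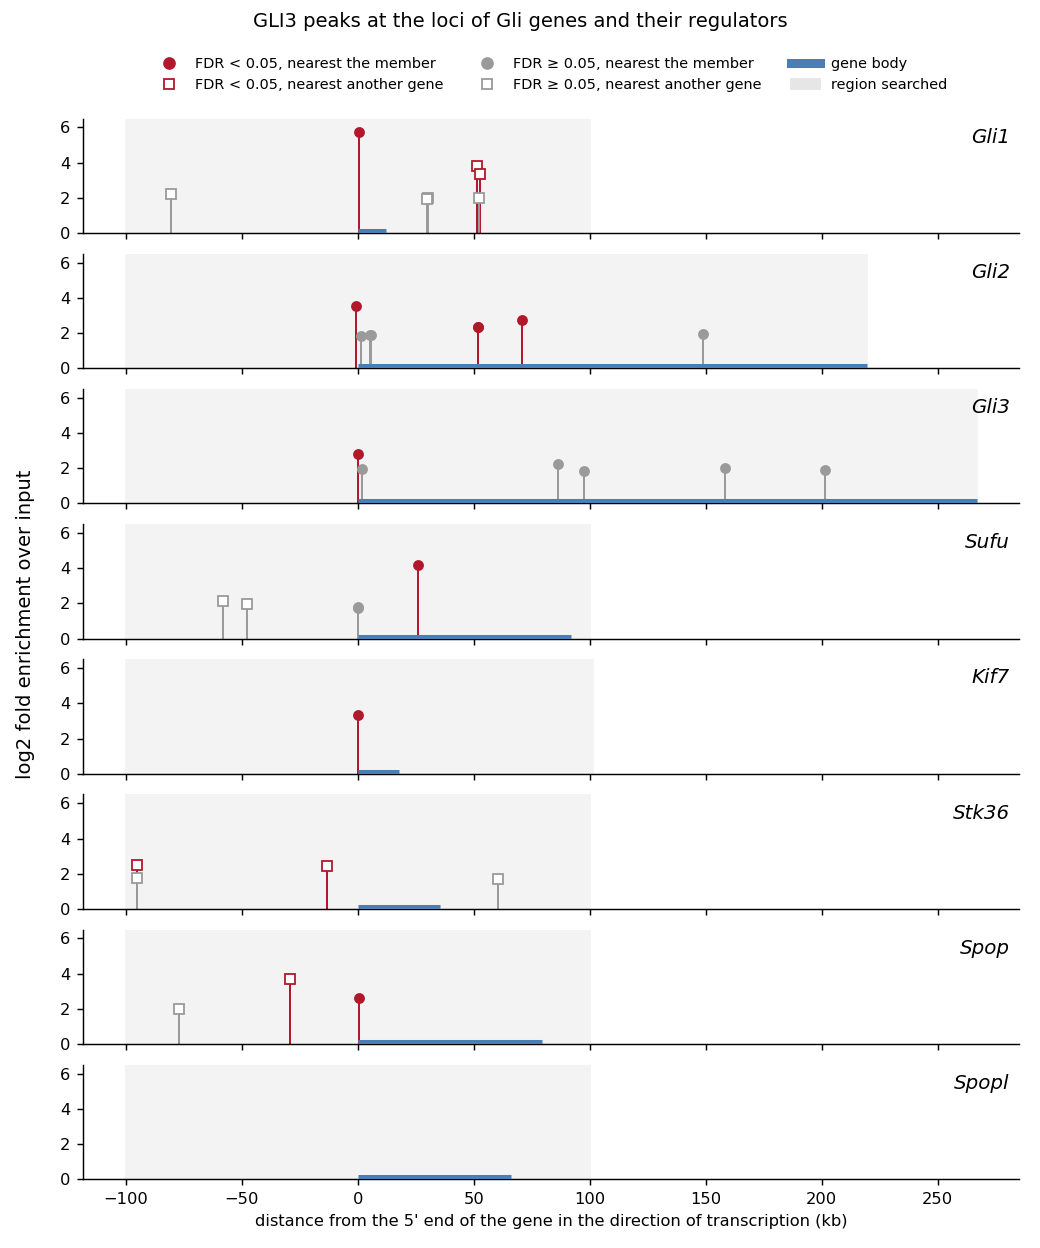
GLI3 peaks at the 8 loci. The horizontal axis is the distance in kb from the 5′ end of each gene in the direction of transcription and the vertical axis the log2 fold enrichment over input. Each stem is 1 listed peak, red with an FDR under 0.05 and grey otherwise, filled where the nearest protein-coding TSS is that of the member and open where it is that of another gene. Gli1, Gli2, Gli3, Kif7 and Spop have a red filled stem at the gene start, Sufu has one inside the gene, Stk36 has only open stems and Spopl has none.

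Gli1 encodes an activator whose transcription is itself switched on by HH signalling, and it carried the strongest binding of the group. Its promoter peak (chr10:127339000-127342549) ranked 7 in the list, with a log2 fold enrichment over input of 5.76, which is 54.1-fold. This exceeded 99.9% of the called peaks. The −log10 Poisson p-value was 100, the highest value listed, which was shared by 96 called peaks. The peak was 3550 bp long, and 1 called peak was longer. Its summit lay in the 5′ UTR of exon 1, 342 bp downstream of the TSS of Gli1 (chr10:127329882-127341974, minus strand).

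Matches were dense in the Gli1 promoter peak. It held 6, or 1.69 per kb, while all called peaks together held 0.549 per kb. Among the 100 longest called peaks, which include the Gli1 peak, the density was 0.511 per kb. Of these, 2 held 6 or more matches, the Gli1 peak being 1 of the 2. Over all called peaks, 14 held 6 or more, and the most in a single peak was 57. None of the 6 matches in the Gli1 peak was the exact consensus.

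The other called peaks at the Gli1 locus were at neighbouring genes. One (chr10:127290300-127290799, log2 3.83) had its summit 277 bp from the TSS of Ddit3, which encodes the stress transcription factor CHOP, and 51477 bp from the Gli1 TSS. The other (chr10:127288550-127289549, log2 3.34) was 74 bp from the TSS of Mbd6, a methyl-CpG-binding domain family member, and 52882 bp from that of Gli1. Neither held a GLI match. The window around Gli1 was gene-dense, with TSSs of 9 other protein-coding genes, and 4 more listed peaks in it had an FDR between 0.133 and 0.727.

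Gli2 encodes the main activator of the HH response in most tissues, and it had 4 called peaks, against 3 at Gli1, an order that turned at an FDR under 0.01 (2 at Gli2, 3 at Gli1) and within 250 kb (5 and 9). The strongest (chr1:119053150-119054399) covered the TSS, with its summit in intergenic sequence 618 bp upstream of the TSS of Gli2 (chr1:118834132-119053619, minus strand). Its log2 fold enrichment was 3.51 (11.4-fold, rank 728), above 90.0% of called peaks. The other 3 lay in intron 2. One (chr1:118982550-118983249) had a log2 fold enrichment of 2.77 and an FDR of 0.00113, 70927 bp inside the gene. The remaining pair (chr1:119001550-119001749 and chr1:119001900-119002149) had summits 295 bp apart, log2 fold enrichments of 2.37 and 2.36, and both an FDR of 0.0374, close to the threshold.

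Among protein-coding TSSs, all 4 Gli2 peaks were nearest to that of Gli2. No other protein-coding TSS lay in the 319 kb window, and the nearest, of Inhbb, was 369 kb away. No GLI match was found within 250 bp of any of the 4 summits. The 50 bp to either side of the upstream summit (chr1:119054187-119054287) and of the summit of the strongest intron 2 peak (chr1:118982642-118982742) are given to show the sequence under a GLI3 peak with no GLI match at its summit.
Gli2, upstream summit: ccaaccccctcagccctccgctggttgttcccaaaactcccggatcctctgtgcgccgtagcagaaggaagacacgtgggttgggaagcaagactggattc
Gli2, intron 2 summit: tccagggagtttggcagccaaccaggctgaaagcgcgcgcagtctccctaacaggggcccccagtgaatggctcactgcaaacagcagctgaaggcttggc

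Another 4 listed peaks in introns 1 and 2 of Gli2 had an FDR of 0.484 or more. A called peak (rank 4741, log2 2.55) lay 8.38 kb beyond the 3′ end of Gli2, 228 kb from its TSS, and so just outside the rule.

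Gli3 itself, the gene of the immunoprecipitated factor, had 1 called peak. It lay at the promoter (chr13:15462750-15463999), with its summit 4 bp before the nearest of 2 TSSs in the annotation used and just inside the gene record, which starts slightly further upstream. The log2 fold enrichment was 2.82 (7.04-fold, rank 2860), above 60.7% of called peaks and below the promoter peaks of Gli1, Gli2 and Kif7. The window at the summit had a GC content of 76.8%, the highest among the called peaks of the members, and no GLI match was found in it or anywhere in the peak. Bases that end just before the start of the Gli3 gene record (chr13:15463134-15463234) lie within the antisense non-coding gene Gm6556 and are shown as the sequence next to this summit.
Gli3, upstream: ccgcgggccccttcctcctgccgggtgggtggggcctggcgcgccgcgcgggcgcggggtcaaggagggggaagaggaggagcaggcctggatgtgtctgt

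No peak in the 267 kb body of Gli3 (chr13:15463235-15730026, plus strand) passed the threshold beyond the promoter. There were 5 listed intronic peaks, 1112, 85607, 96602, 157627 and 200772 bp from a Gli3 TSS. The one at 85607 bp came nearest, with an FDR of 0.0704 and a log2 fold enrichment of 2.27, while the other 4 had an FDR of 0.438 or more. None of these 5 held a GLI match. The window of Gli3 was the longest, at 367 kb, and held 0.273 called peaks per 100 kb, against 1.25 at Gli2 and 1.5 at Gli1. Of the called peaks at Gli1, however, only 1 was nearest the gene itself, as at Gli3, and within 50 kb each of the pair had 1 called peak. The nearest called peak outside the window was 1400 kb away.

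**Figure D2:**
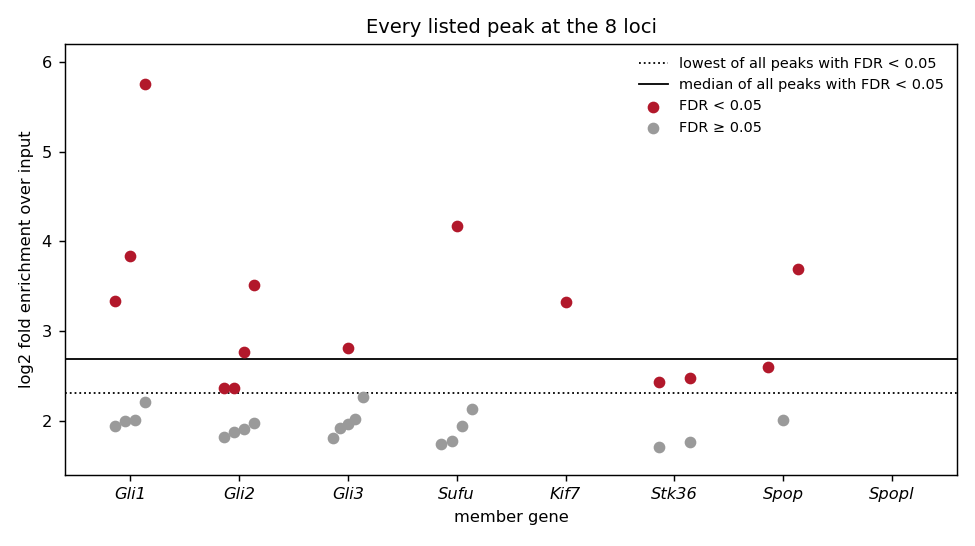
Log2 fold enrichment over input (vertical axis) of each of the 34 listed peaks by member gene (horizontal axis). Red points have an FDR under 0.05 and grey points an FDR of 0.05 or more, the dotted line is the lowest value (2.31) and the solid line the median (2.69) of all 7282 called peaks. The Gli1 promoter peak stands highest at 5.76, the Sufu intron peak is next at 4.17, and the highest Gli3 point below the dotted line is at 2.27.

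Sufu encodes the main negative regulator that binds GLI proteins, and its called peak was not at the promoter. The peak (chr19:46422300-46423149) lay in intron 1 or 2, depending on the transcript, 25766 bp downstream of a TSS of Sufu (chr19:46396896-46488804, plus strand). Its log2 fold enrichment was 4.17 (18.0-fold, rank 161), above 97.8% of called peaks and second among the members to the Gli1 promoter peak. Its summit had the lowest GC content (51.3%) of the 14 called peaks. Both of the matches shown above lay within 100 bp of the summit.

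At the Sufu promoter there were 2 listed peaks, 17 and 126 bp from a TSS, each 100 bp long and with an FDR of 1. Their log2 fold enrichments were 1.78 and 1.74, so neither was called. A called peak of 2500 bp near Trim8 (rank 436, log2 3.77) lay 103 kb from the nearest Sufu TSS and 10.9 kb beyond the end of the gene, just outside the rule.

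Kif7 encodes the kinesin that organises the tip of the primary cilium, where GLI proteins and SUFU are regulated. It had a single listed peak, which was called (chr7:79715600-79715999). The summit was 92 bp upstream of the TSS of Kif7 (chr7:79698098-79715720, minus strand), and the log2 fold enrichment was 3.33 (rank 1066), above 85.4% of called peaks. No GLI match was found in the peak. The 50 bp to either side of the summit (chr7:79715762-79715862) held 2 GC boxes (GGGCGG, either strand), in capitals.
Kif7, summit: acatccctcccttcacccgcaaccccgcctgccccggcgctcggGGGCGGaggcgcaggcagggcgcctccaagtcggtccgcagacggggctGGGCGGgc

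Stk36 encodes the mammalian relative of the fly kinase Fused. It had no listed peak at its promoter or in its body (chr1:74601445-74636894, plus strand). The 2 called peaks in its window were at other genes. One (chr1:74587850-74588199, log2 2.44, FDR 0.0208) was 29 bp from the TSS of Zfp142, which encodes a zinc finger protein, and 13388 bp from that of Stk36. The other (chr1:74506450-74506699, log2 2.48, FDR 0.0114) was 409 bp from the TSS of Cnot9, a subunit of the CCR4-NOT deadenylase, and 94978 bp from Stk36, which made it the called peak nearest the edge of the 100 kb window. A GLI match (A2C) lay 188 bp from the Cnot9 summit, outside the called peak itself.

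Spop encodes the adaptor through which a cullin-3 ubiquitin ligase degrades full-length GLI2 and GLI3. It had a called peak in an intron (chr11:95414450-95415099), 644 bp downstream of the TSS of Spop (chr11:95414080-95493406, plus strand). Its log2 fold enrichment of 2.61 (6.08-fold, rank 4267) was the lowest of the called promoter peaks at members, above 41.4% of called peaks. The stronger peak in the window (chr11:95384500-95385249, log2 3.69, rank 515) was 95 bp from the TSS of Slc35b1, a solute carrier gene, and 29293 bp from that of Spop. Neither held a GLI match. A listed peak with a GLI match near Nxph3 fell just outside the rule, at 100.004 kb, with an FDR of 0.0704.

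Spopl (chr2:23506220-23572106, minus strand), the paralogue of Spop, had no listed peak in its 200.001 kb window. The nearest listed peak was 281 kb away with an FDR of 0.727, and the nearest called peak 1596 kb away. By nearest TSS, Spop had 1 called peak and Spopl 0. Among all protein-coding genes, 52.8% had at least 1 called peak by the same rule, compared with 7 of the 8 members.

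The distance to a member did not always identify the nearest gene. Among TSSs of protein-coding transcripts, 9 of the 14 called peaks were nearest to one of a member and 5 to one of another gene. These 5 were all promoter peaks of the other gene. With TSSs of all annotated genes, 6 of the 14 were nearest to a member TSS. The 5 peaks nearest another gene had a median log2 fold enrichment of 3.34 and the 9 nearest a member 2.82. Over all 14 the median was 3.07 (2.36 to 5.76), against 2.69 over all called peaks. Their median length was 675 bp, against 400 bp. Without values per replicate, none of these differences could be set against the variation between embryos.

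Promoters were compared across genes next. A promoter peak overlapped the window from 2 kb before to 1 kb after a TSS. Called promoter peaks were found at 5 of 8 members (62.5%), Gli1, Gli2, Gli3, Kif7 and Spop, while 17.2% of all 21938 protein-coding genes had one. All 8 members had a CpG-rich start, meaning that at least 50% of bases were G or C and that observed over expected CpG exceeded 0.6 within 250 bp of the gene's 5′ end. Among all genes with such a start, 29.3% had a called promoter peak. The part of base composition in the count at the members was not tested. The number of called peaks per 100 kb was 0.741 over the 8 windows and 0.267 over the placed chromosomes, and the median over genes was 0.749 for the members and 0.429 for all protein-coding genes.

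By the log2 fold enrichment of the highest promoter peak, Gli1 ranked 5 among the 3784 genes with a called promoter peak. Gli2 ranked 429, Kif7 622, Gli3 1633 and Spop 2381. The 5 therefore spanned most of the range, and the median of 3.33 compares with 2.73 over all such genes. Only the Gli1 promoter peak held a GLI match at its summit.

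The other genes of the HH pathway give a frame for these values. In a list of 32 ligands, receptors, kinases, ubiquitin ligase subunits, ciliary proteins and nuclear cofactors, 14 (43.75%) had a called promoter peak and 23 (71.9%) a called peak by the 100 kb rule. The median log2 fold enrichment of their promoter peaks was 3.08, and 3 of the 14 held a GLI match. The log2 fold enrichment of the highest promoter peak was 6.05 at Ptch1, which encodes the HH receptor, and 3.86 at the co-receptor gene Gas1. It was 3.75 at the neighbouring ciliary genes Evc and Evc2, which share their peaks. Gli1, at 5.76, lay between Ptch1 and Gas1, and Gli2, at 3.51, fell below Evc and Evc2.

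**Figure D3:**
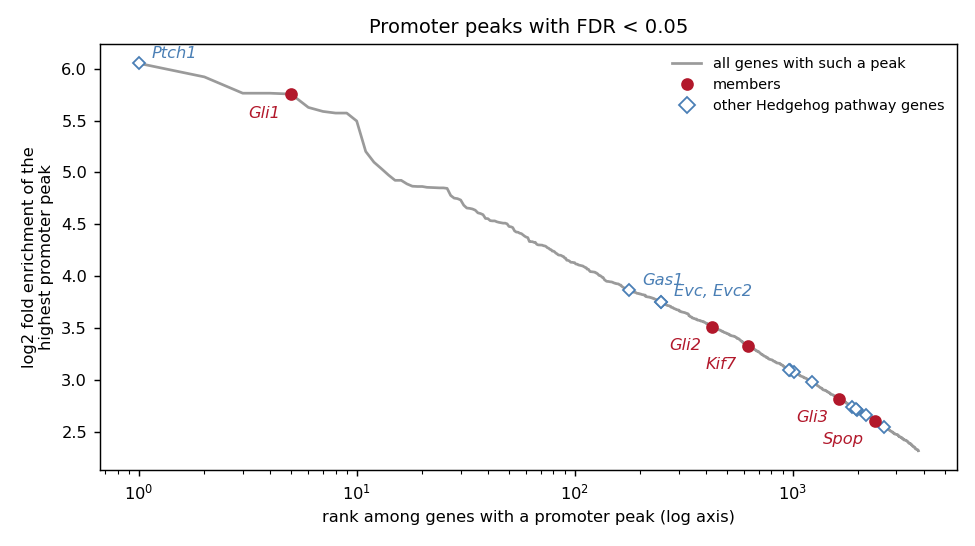
Log2 fold enrichment of the highest called promoter peak of a gene (vertical axis) against its rank among the 3784 genes with such a peak (horizontal log axis). The grey line is all genes, red circles are members and open diamonds are the other HH pathway genes shown. Ptch1 is at rank 1 and Gli1 at rank 5, while Gli2, Kif7, Gli3 and Spop lie between rank 429 and rank 2381.

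GLI matches were counted within 250 bp of each summit. They were present in 3 of 14 called peaks at the members (21.4%, 95% Wilson interval 7.57 to 47.6), those at Gli1, in the Sufu intron and near Cnot9. The share over all called peaks was 20.8%, within that interval. In windows 2 kb to either side of the member summits, 4 of 28 held a match (14.3%), against 10.7% around all called peaks. These windows were not limited to sequence outside peaks. The Gli1 window with a match lay inside the Gli1 peak and held its C3T and A5T matches, so it is not separate background. Among the 20 listed member peaks beyond the threshold, 1 held a match (5%), the same site near Cnot9 read from another summit, compared with 15.7% of all such peaks. The exact consensus was found in 0 of the 14 and in 2.84% of all called peaks. A count of 0 was taken to allow up to 3 of the 14 (21.4%), an approximate limit and not a Wilson interval. No difference in the share of GLI matches from the whole list was seen, and 14 peaks leave a wide interval.

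**Figure D4:**
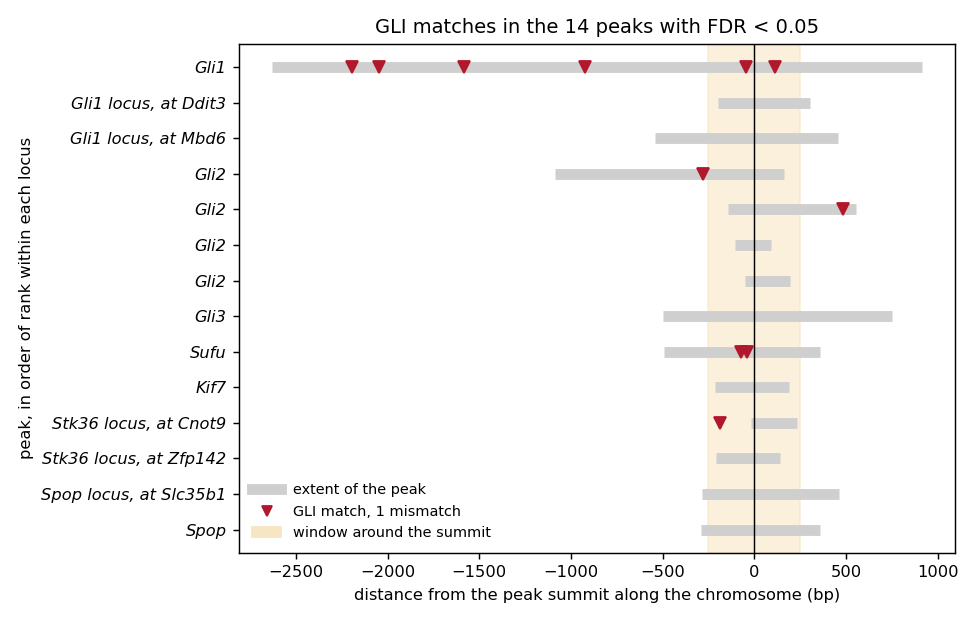
Position of GLI matches (red triangles, each with 1 mismatch) in the 14 called peaks. The horizontal axis is the distance from the summit in bp along the chromosome, each row is a peak, grey bars show its extent and the shaded band 250 bp to either side of the summit. Matches within the band are seen only at Gli1, in Sufu and at the Cnot9 peak, and the Gli1 peak holds 4 more up to 2195 bp from its summit.

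Other short sequences were counted without mismatch on both strands. The GC box (GGGCGG), bound by SP factors, was present in 8 of the 14 called peaks, against 57.1% of all called peaks. It was present in 3 of the 9 nearest a member and in all 5 of those nearest another gene. The latter 5 were all promoter peaks, but so were 5 of the 9. Of the called promoter peaks at members, those of Gli3 and Kif7 held it and those of Gli1, Gli2 and Spop did not. Among all called promoter peaks, 83.5% held it. The CCAAT box (CCAAT) was present in 5, against 43.8%. The ETS core (CCGGAAG) was present in 2, against 12.7%. The homeodomain core (TAATTA) was present in 1, a Gli2 intron 2 peak, against 11.5%. The median GC content at the summit was 61.5% at the members and 58.7% in all called peaks, and 10 of the 14 called peaks (71.4%) were at the promoter of some protein-coding gene, against 52.6% of all called peaks.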

How the data were processed

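ChIP-seq libraries (2 ChIP, 1 input) were amplified with 15 PCR cycles. Reads were aligned with Bowtie2 2.2.5 and mm10 per the submitters' processing notes, and peaks were called with CisGenome 2.1.0. The list is attached to replicate 1 and does not name its libraries. The study describes its E10.5 forelimb peaks as called from both replicates, and the list was treated so. The deposited FDR is a q-value from the authors' caller. The deposited log2 fold enrichment over input is the largest among the windows of a peak. The authors ranked peaks by a T score, which was a linear function of the log2 value in all 17149 peaks (largest deviation 1.76e-06) and so adds no separate measure. The deposited −log10 Poisson p-value stops at 100. For depth the study gives only a lower bound, so the exact depth is unknown here, and intervals cover counting error over peaks only.

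Positions are as listed (starts are multiples of 50, and counting from 0 or 1 is not stated, which leaves 1 bp uncertain). Positional counts omit 5 peaks on unplaced sequence. TSSs came from GENCODE M21 (basic), matching all 8 members, and sequences from RefSeq GRCm38.p6, read with pysam 0.24.0. The nearest TSS was taken among protein-coding transcripts unless stated otherwise. The motif search and the placing of summits were tested on simulated data. Named genes were the members, the gene nearest each called member peak, and the 5 of 32 other pathway genes with the highest promoter enrichment, 1 of which is not reported here. Neighbours used to place the edge of a window were named after their values were seen. Members and lists were chosen with earlier results of these data known. Alternatives changed the FDR threshold, distance, TSS set, promoter window and motif search.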

Additional observations from a re-analysis of the deposited data

How the results depend on the processing

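With all listed peaks in place of those with an FDR under 0.05, the members had 34 peaks, 20 of them nearest a member TSS, with a median log2 fold enrichment of 2.08. Within 250 kb there were 32 called peaks. With no mismatch allowed, 0% of called member peaks held a GLI match. These alternatives widen or narrow the criterion itself. The other 26 alternatives of the 5 main results stayed within the set limits, which were 1.5 times for counts and the 95% interval for the GLI share and the median. With TSSs of all annotated genes, 6 called peaks were nearest a member, against 9, which reached the limit without passing it. At an FDR under 0.01 there were 10 peaks, 5 genes with a promoter peak and a median of 3.42, with 2 peaks at Gli2, fewer than the 3 at Gli1, and 0 at Stk36. Of the counts per gene, 14 moved by over 1.5 times, these last ones at Gli2 and Stk36 included. Within 250 kb, called peaks numbered 9 at Gli1, 5 each at Sufu and Spop, 4 at Stk36 and 3 at Kif7. Within 50 kb, Gli1 and Stk36 had 1 each. Counting all listed peaks gave 7 at Gli1, 8 at Gli2, 6 at Gli3, 5 at Sufu and 4 at Stk36. Spopl stayed at 0 in each alternative run for it. No paired analysis was possible because neither replicate has values of its own. For the same reason no replicate could be left out. The study gives a lower bound on depth but no total per library, and how depth limits weak peaks was not tested.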
